A study of Mus musculus with 4 samples.

Results

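The Chil1/Sfrp5/Notum chondrocytes were a group of cartilage cells in long bones of adult mice, set apart by counts of Chil1 or Sfrp5 together with Wfdc2, Notum or Lef1. Barcodes with at least 1000 unique molecular identifiers (UMIs), at least 800 genes, under 15% mitochondrial and under 5% haemoglobin UMIs were kept. Members held at least 3 UMIs of Chil1 and Sfrp5 together, at least 1 of Wfdc2, Notum and Lef1 together and at least 3 of Acan and Col2a1 together. Their Col10a1 was under 20 UMIs per 10000, they held at most 2 UMIs of Mki67 and Top2a together, and Cdh5 and Ptprc were at 0. These conditions found 1114 members among 24739 kept barcodes and among 10853 barcodes that met the condition on Acan and Col2a1 without Cdh5 or Ptprc.

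Cartilage of the growth plate and of the joint surface is built by chondrocytes, which lay down type II collagen and aggrecan. In the growth plate a resting zone that secretes PTHrP (encoded by Pthlh) feeds columns of dividing cells, which later enlarge, express type X collagen and are replaced by bone. Wnt signals act at several of these steps: Lef1 is a transcription factor of the pathway, Sfrp5 a secreted Wnt antagonist and Notum an enzyme that removes the lipid from Wnt ligands. Chil1 encodes a secreted chitinase-like glycoprotein made by chondrocytes, Wfdc2 a small secreted protein with a whey acidic protein fold and Spon1 the matrix protein F-spondin.

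The study sequenced non-haematopoietic cells of the metaphysis of femur and tibia from 12-week-old mice with droplet-based 10x Chromium chemistry, in 2 mutant and 2 control libraries. Mutants (Lats2iΔEC) carried floxed Lats2, a kinase of the Hippo pathway, and the tamoxifen-inducible Cdh5(PAC)-CreERT2 transgene, whose promoter is that of an endothelial cadherin. Controls were littermates without Cre that received tamoxifen in the same way. Blood-lineage, CD45 and CD117 positive cells had been depleted before loading, the study counts each library as a biological replicate, and whether a library came from 1 animal or from a pool is not stated in the sources used here. P-values therefore measure the spread between these libraries.

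Libraries held between 69636600 and 85899079 UMIs in all and between 5133 and 6868 kept barcodes. Lats2 was lower in endothelial barcodes (at least 2 Cdh5 UMIs) of the mutants, at 90.3 and 94.4 counts per 1000000 UMIs (CPM) in these libraries and at 127 and 116 in the controls. The Cre-ERT2 sequence stood there at 52.6 and 46.2 CPM in mutants and at 0.943 and 0.793 in controls. In the members Cre-ERT2 was at 0 in all 4 libraries. Their Lats2 was at 34.8 and 36.4 CPM in mutants and at 47.5 and 43.0 in controls, lower in both mutant libraries, a log2 fold change of −0.27 that did not pass the test (adjusted p = 0.144, edgeR quasi-likelihood test). Every library had counts of the Y-linked gene Ddx3y in its members and Xist at no more than 0.217 CPM.

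The genes that chose the members were concentrated in them, and these levels are given as a description with no test. The cells set beside them, called here the cartilage reference, were 3961 barcodes that met every condition but the one on markers, held at least 10 UMIs of 7 cartilage genes (Sox9, Col9a1, Col9a2, Col9a3, Matn3, Hapln1 and Comp) and had few UMIs of the osteoblast genes Col1a1, Bglap and Bglap2 (under 20 per 10000). Chil1 stood at 1356 and 1299 CPM in the mutant members and 1174 and 1473 in the control members, against 48.3 to 115 in the reference. Sfrp5 stood at 196 and 202 CPM in mutant and 118 and 105 in control members, the mutants above the controls, against 11.7 to 24.9 in the reference. Notum was at 150 and 136 CPM in mutant and 158 and 163 in control members, and Lef1 at 372 and 392 against 531 and 546, so both were lower in mutant than in control members. In CPM 41.6% of all genes tested were lower in both mutant libraries than in both controls. Wfdc2 was the sparsest of the set, at 74.0 and 73.4 CPM in mutant members and 52.1 and 70.0 in control members, with a UMI in 15.4% and 25.2% of mutant and 14.5% and 14.9% of control members at full depth (7.74% and 11.3% against 7.87% and 7.57% thinned to 3000 UMIs). Lef1 had a UMI in 90.3% to 96.9% of members and Notum in 50.7% to 60.4%, so most members met the second marker condition with Lef1 and a smaller share also held Notum.

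**Figure D1:**
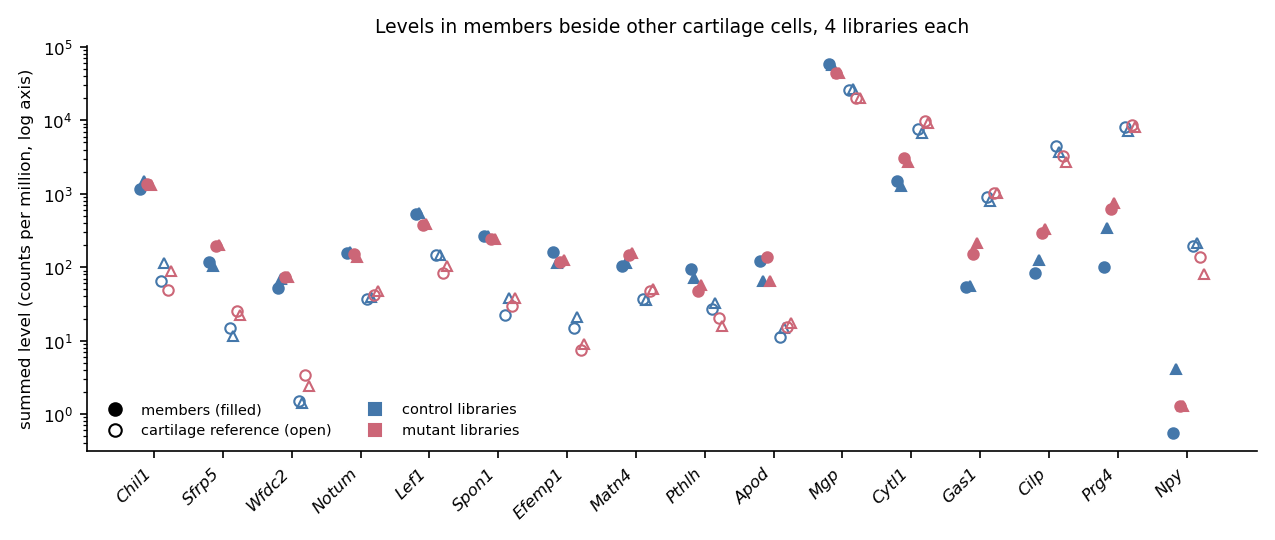
Level of each gene in CPM (log axis) in the members (filled) and in the cartilage reference (open), 1 point for each of the 4 libraries, for genes of the rule, Spon1 and other genes that differ between the cell sets. Chil1, Sfrp5, Wfdc2, Notum, Lef1 and Spon1 lie higher in members in every library, Npy, Prg4, Cilp, Gas1 and Cytl1 lower.

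Spon1, a marker that the rule did not use, went with the others. Like the genes of the rule, Spon1 was chosen with earlier results of these data known, so its level beside the reference is a description. It stood at 239 and 239 CPM in mutant and at 267 and 262 in control members, against 29.3 and 37.8 in mutant and 22.5 and 38.3 in control reference cells. The log2 ratio of members over reference was 2.99 ± 0.397 (SD, n = 4 libraries), with no overlap between the cell sets. With every cell thinned to 3000 UMIs, Spon1 had a UMI in 40.1% and 44.4% of mutant and 38.6% and 38.6% of control members, in 5.33% to 8.55% of reference cells and in 0.883% to 1.72% of endothelial barcodes. Before thinning these shares were 55.7% to 68.6%, 12.2% to 17.1% and 2.96% to 4.29%. Spon1 lies on chromosome 7 (113364999 to 113642610, plus strand, GRCm39). Its level did not differ between genotypes past the threshold (log2 fold change −0.06 ± 0.0785 SE, adjusted p = 0.622, edgeR).

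Members were deeper than the reference, with medians of 14475.5 and 14090.5 UMIs in mutant and 13819 and 14076 in control libraries against 11459.5 to 12191. Mitochondrial UMIs took 4.03% to 4.58% of their counts, and a doublet score marked 2.68% to 6.27% of them. No barcode was shared by members of different libraries. The edge of the marker threshold was viewed in cells that also met the cartilage and osteoblast gene conditions of the reference. There the 24 to 30 members of a library with 3 UMIs of Chil1 and Sfrp5 had Spon1 at 108 to 153 CPM. The 45 to 51 barcodes with 2 UMIs that met every other condition had it at 94.2 to 107. In mutants Spon1 was at 153 and 149 CPM just inside the threshold and at 96.2 and 94.2 just outside. In controls it was at 108 and 109 against 94.4 and 107, so the values lay close in controls and further apart in mutants.

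Beside the cartilage reference, 703 of 3022 genes with at least 50 CPM were higher and 1177 lower in the members of all 4 libraries, of which 51 and 74 differed at least 2-fold on average. Since the cells were chosen by their counts, these ratios carry no test. Besides the marker genes, the members had more Efemp1, which encodes the matrix protein fibulin-3, at 118, 124, 162 and 114 CPM in mutants 1 and 2 and controls 1 and 2 against 7.41, 9.02, 15 and 21.1 in the reference. Apod, a lipid-binding lipocalin (log2 ratio 2.62), Rgs6, a regulator of G-protein signalling (2.24), and Dio2, the deiodinase that activates thyroid hormone (1.86), were also higher. Of 14 genes reported for the resting zone, 6 were higher, the rule gene Sfrp5 and Spon1 included, and among them Apoe (1.60) and Pthlh (1.49), and 8 were lower, among them Gas1, a Hedgehog co-receptor (−3.23), Barx1 (−2.56), Grem1 (−1.71) and Clu (−1.39). Matn4 (1.61), the transcription factor Pax1 (1.44) and the calcification inhibitor Mgp (1.14) were higher. General cartilage genes lay close to the reference, with Sox9, the transcription factor of the lineage, at −0.16, Col9a1 at −0.21, Col9a2 at 0.03 and Col11a1 at −0.07, and the cells met the label of chondrocytes by these genes. Genes of the joint surface and of neighbouring connective tissue were much lower: Npy (−6.22), Prg4, the lubricin of joint cartilage (−4.50), Cilp (−4.28), Slurp1 (−4.22), Vcan (−3.72) and Angptl7 (−3.55). Cytl1, a secreted cartilage protein, was lower at −2.04.

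The members were not uniform. Of the members, those with at least 3 UMIs of Chil1 and under 3 of Sfrp5 are called the Chil1 side, and those with the reverse the Sfrp5 side. Over members thinned to equal depth, Chil1 and Sfrp5 had weak negative correlations (Spearman's rho −0.272 and −0.169 in mutants, −0.0701 and −0.135 in controls, n = 297, 302, 254 and 251 cells), whereas Chil1 and Wfdc2 went together (0.331 and 0.276, 0.308 and 0.270). The rule asked for a minimum of Chil1 and Sfrp5 together, which by itself favours a negative value between them, and cells of a library share its preparation, so these correlations are descriptions. Panx3, a channel protein of maturing chondrocytes, was at 85.1, 77.0, 69.2 and 89.9 CPM on the Chil1 side of mutants 1 and 2 and controls 1 and 2, and at 3.10, 1.19, 3.24 and 5.69 on the Sfrp5 side. Bpifb1 (log2 ratio of Sfrp5 over Chil1 side −4.99), the protease inhibitor Serpina3n (−4.25), Cthrc1 (−3.07), the small leucine-rich proteoglycan Epyc (−2.33), Prkg2, the cGMP-dependent kinase of growth plate chondrocytes (−1.97), and Lum (−1.66) were likewise higher on the Chil1 side. The Sfrp5 side held more Pthlh, at 70.3, 119, 162 and 256 CPM against 36.6, 26.4, 62.4 and 46.1, more Pappa2, a protease that frees insulin-like growth factors (2.83), and more Bmp3 (2.68), Bmp2 (1.87), Gli2 (1.75) and Hhip (1.51), the last being a Hedgehog antagonist and target. Prg4 was also higher there on average (2.89), at 1985, 1276, 262 and 4083 CPM against 133, 417, 96.6 and 168. Notum had a ratio of 0.62, and Lef1 (0.08) and Spon1 (0.67) did not lie to the same side in all 4 libraries. In all, 608 of 3104 genes were higher and 335 lower on the Sfrp5 side of every library, 44 and 58 of them at least 2-fold.

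The share of members depended on the cells it was taken of. Among barcodes that met the condition on Acan and Col2a1 the genotypes overlapped. The share was 11.1% (exact 95% binomial interval 9.90 to 12.3) and 10.1% (9.02 to 11.2) in mutant libraries and 10.2% (9.08 to 11.5) and 9.69% (8.58 to 10.9) in controls. The means were 10.6% ± 0.699 and 9.97% ± 0.394 (SD, n = 2 libraries each), and the exact permutation test over libraries, two-sided, gave p = 0.667, where 2 against 2 cannot go below 0.333. That denominator includes osteoblasts with stray Col2a1 counts: Bglap was at 6763 and 6243 CPM in mutants and at 36587 and 35991 in controls in its other cells with low Col10a1 and without cycling genes. Over those cells and the members, without hypertrophic and cycling cells, the shares were 15.4% and 13.4% against 11.9% and 11.2%, the mutants higher. With every cell thinned to 3000 UMIs before the rule was applied they were 4.84% and 4.52% against 5.87% and 5.64% of all barcodes with Acan and Col2a1, the mutants lower. Thinned and without hypertrophic and cycling cells they were 6.82% and 6.08% against 6.58% and 6.33%, with overlap. Without thinning, the shares over cartilage cells alone (the reference and the members) were 23.2% and 20.8% against 22.3% and 21.6%. As a share of all kept barcodes, members took 5.81% and 5.19% in mutants and 3.71% and 3.73% in controls, the mutants above the controls (exact permutation p = 0.333, the smallest this design allows). The depletion of blood cells and the yield of every other cell type enter that last denominator, and fewer cells and less recovery cannot be told apart in it. Intervals cover counting error only.

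**Figure D2:**
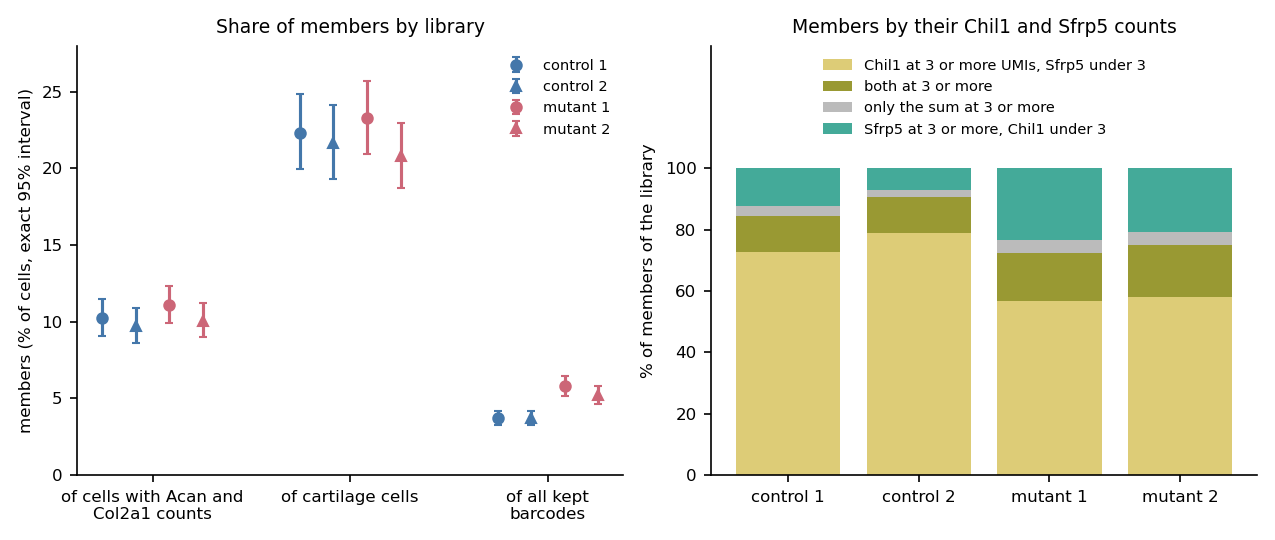
Left, share of members in percent in each library with exact 95% binomial intervals, among barcodes with Acan and Col2a1 counts, among cartilage cells and among all kept barcodes. Right, members of each library split in percent by their Chil1 and Sfrp5 counts. The Sfrp5 side takes 23.5% and 20.9% of members in mutants and 12.2% and 7.06% in controls.

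Within the members, the balance of the sides differed between the genotypes. The Chil1 side made up 56.7% and 58.2% of members in mutant and 72.5% and 78.8% in control libraries (169, 178, 185 and 201 cells). The Sfrp5 side made up 23.5% and 20.9% in mutants and 12.2% and 7.06% in controls (70, 64, 31 and 18 cells), and cells with at least 3 UMIs of each made up 15.8% and 16.7% against 11.8% and 11.8%. The genotypes did not overlap in any of these shares. Both genes belong to the rule, so no test is given, and the Sfrp5 side was shallower, with median UMIs of 12759 and 11873.5 in mutants and 9236 and 9676.5 in controls against 14638 to 15465 on the Chil1 side.

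Mutant members differed from control members in 126 of 6943 genes tested (1.81%), of which 78 were higher (1.12%) and 48 lower (0.691%). Counts were summed over the members of each library and tested with edgeR, and a gene was called at an adjusted p of at most 0.05 with at least a 2-fold change. Without the condition on size, 778 genes were higher (11.2%) and 546 lower (7.86%). The fit held 8 genes of the rule, which are not read as tested, and Col10a1 was among the calls. Over the other 6935 genes, 77 were called higher and 48 lower, and 776 and 543 passed by adjusted p alone. A higher sum can come from more cells with the transcript or from more transcript per cell, and the shares of cells with a UMI, at full depth, are given for some genes. A gene was tested if at least 20% of members of either genotype held it. Of the called genes, 35 of the 78 higher and 20 of the 48 lower passed this filter only through the genotype where they were higher, so the counts of calls are partly set by it. Shares of cells are not given for every gene, so p-values of other genes at low levels carry the same limit. Without the filter 26393 genes were tested and 1 of the 126 calls remained. Because the sides took different shares of the members, values within each side are given beside the leading genes. Of the 126 calls, 118 could be tested on the Chil1 side, where 70 were called, and 111 on the Sfrp5 side, where 51 were called. Spon1, for example, had a log2 fold change of 0.21 on the Chil1 side (adjusted p = 0.202) and of −1.28 on the Sfrp5 side (adjusted p = 0.0167), at 185 and 214 CPM in mutants against 667 and 399 in controls on the latter.

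**Figure D3:**
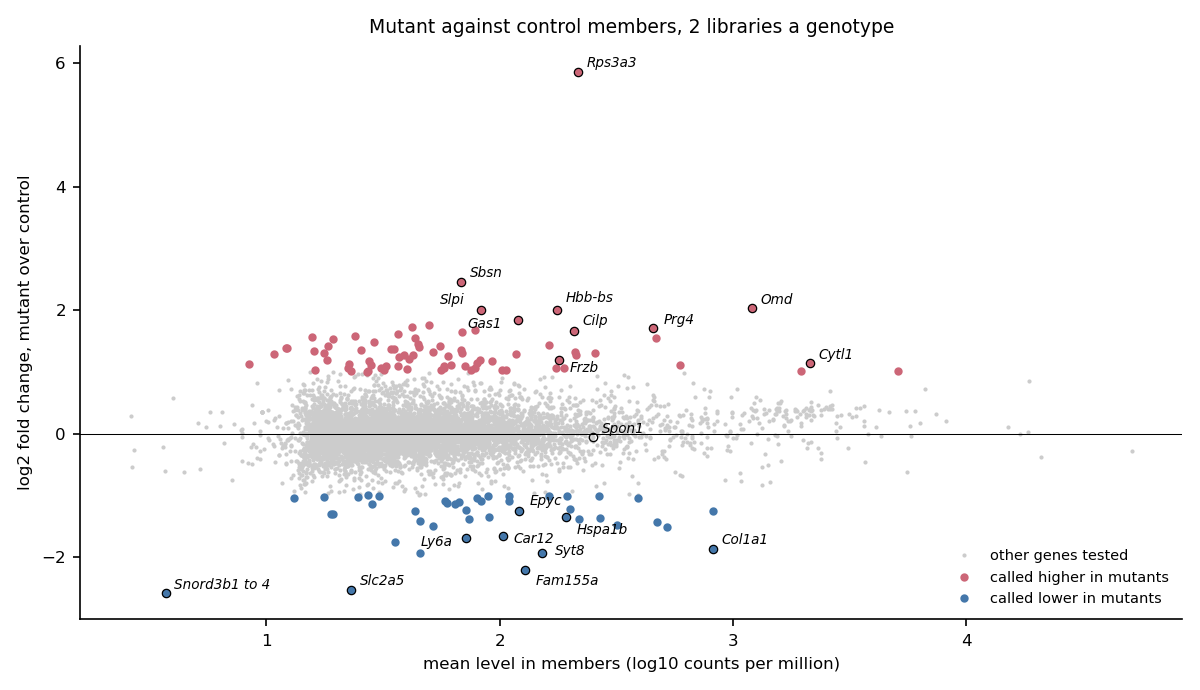
Log2 fold change of mutant over control members against the mean level in CPM (log axis), 1 point per gene tested, with the called genes coloured by direction. Omd and Cytl1 are the abundant genes on the upper side, Syt8, Car12 and Fam155a among those on the lower side.

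Omd, which encodes osteomodulin, a keratan sulfate proteoglycan of mineralized tissue (ENSMUSG00000048368, chromosome 13, 49735938 to 49746298, plus strand), stood at 2044 and 1785 CPM in mutant and 450 and 538 CPM in control members. Both mutant libraries lay far above both controls, and the log2 fold change was 2.04 ± 0.101 (SE, adjusted p = 2.22e-07). It rose in mutants on the Chil1 side (1.78) and the Sfrp5 side (2.56), and a UMI was found in 92.3% and 89.2% of mutant and 69.4% and 74.9% of control members. Slpi, a secreted inhibitor of leukocyte proteases, stood at 130 and 133 CPM against 32.3 and 37.6 (2.00 ± 0.108, adjusted p = 2.41e-07), and rose on both sides (2.32 and 1.81). A UMI of Slpi was found in 36.2% and 36.6% of mutant and 21.6% and 20.4% of control members, and 10 members of each library held 50.4% to 52.1% of its UMIs. Cytl1 rose from 1482 and 1284 CPM in controls to 3023 and 2748 in mutants (1.14, adjusted p = 2.17e-06). Its change was 1.29 on the Chil1 side and 0.30 on the Sfrp5 side, where it did not pass the test (adjusted p = 0.512).

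Several others of the largest increases lay in few cells. Sbsn, which encodes the secreted protein suprabasin, stood at 122 and 108 CPM in mutant against 14.7 and 29.2 in control members (log2 fold change 2.46 ± 0.190). The 10 members with most Sbsn held 43.3% and 61.0% of its UMIs in mutants and 92.5% and 89.1% in controls, and a UMI was found in 27.9% and 22.9% against 6.67% and 9.02% of members. Sbsn and Gas1 reached the 20% of cells needed for testing in mutants and not in controls, so the filter let them in through the group where they were high and their changes in members are given with no p. Gas1 stood at 153 and 216 CPM against 52.9 and 55.9 (1.84 ± 0.148), with 56.6% to 83.3% of its UMIs in 10 members of each library. Prg4 stood at 626 and 746 CPM against 101 and 339 (1.71 ± 0.346, adjusted p = 0.00384), a change that was 1.08 without control 1 and 2.86 without control 2, and 73.0% to 94.0% of its UMIs came from 10 members of each library. Cilp, a matrix protein of cartilage, stood at 294 and 328 CPM against 82.7 and 126 (1.66 ± 0.148, adjusted p = 1.24e-05), with 66.3% to 85.2% of its UMIs in 10 members.

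These 4 genes were more abundant in the reference than in members, and their values differed between the sides. On the Chil1 side Prg4 changed by 1.13 (adjusted p = 0.0668), and on the Sfrp5 side by −0.25 (adjusted p = 0.911), so it passed the test on neither. Gas1 missed the test on both sides (1.11 and 1.28, adjusted p = 0.2 and 0.363). Cilp changed by 0.82 on the Chil1 side (adjusted p = 0.127) and rose by 3.53 on the Sfrp5 side (adjusted p = 0.00645), and Sbsn had a value of 2.36 on the Sfrp5 side and was too sparse to test on the Chil1 side. Among members with the gene condition of the reference and under 5 Prg4 UMIs per 10000, Prg4 itself had a log2 fold change of 0.96, Cilp of 1.15 and Gas1 of 2.73. The part of a few Prg4-rich cells in these increases was not tested.

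Other increases among the 12 largest included Rcan1, the calcineurin regulator, at 116 and 90.3 against 29.8 and 39.8 (1.65), and Ackr3, the scavenging receptor for CXCL12, at 32.8 and 38.1 against 15.4 and 9.68 (1.58). The haemoglobin genes Hbb-bs, Hba-a1 and Hbb-bt were also among them with log2 fold changes of 2.00, 1.76 and 1.73. Free RNA, estimated from barcodes under 100 UMIs, accounted for an expected 410 and 450 CPM of Hbb-bs in mutant and 184 and 250 in control members, more than the 257 and 300 and the 70.7 and 76.4 CPM measured there. Its share was set from the members' summed UMIs of Bglap, Bglap2, Bglap3, S100a8, S100a9, Lyz2, Tyrobp, Hbb-bs, Hba-a1 and Hba-a2. All UMIs of this set were taken as free RNA, so an excess for some of its genes is matched by a shortfall for others. Outside the naming rule, and singled out after its values were seen, the ribosomal protein pseudogene Rps3a3 (chromosome 13, 108807137 to 108807931) had the largest change, at 432 and 420 CPM against 8.70 and 6.75 (5.86 ± 0.128, adjusted p = 1.71e-11). Its reads may be shared with near-identical copies, so this value is uncertain.

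**Figure D4:**
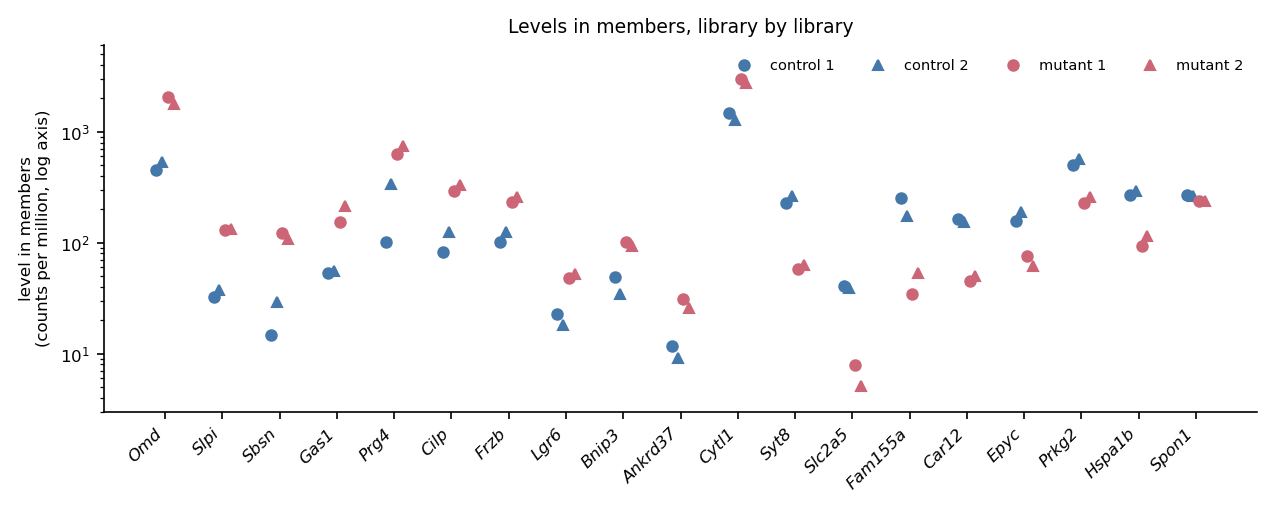
Levels of the named genes in CPM (log axis) in the members of each library, mutant and control in separate colours, 1 point per library. Mutant and control points are separate for Omd, Slpi, Sbsn, Bnip3, Syt8 and Car12, and the control points of Prg4 lie at 101 and 339.

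On the lower side, Syt8, a synaptotagmin (chromosome 7, 141988587 to 141994133), stood at 57.9 and 62.8 CPM in mutant and 226 and 264 in control members, a change of −1.94 ± 0.105 (adjusted p = 2.41e-07). A UMI was found in 28.2% and 25.2% of mutant and 49.8% and 49.8% of control members. Slc2a5, the fructose transporter GLUT5 (chromosome 4, 150196268 to 150228931), stood at 7.81 and 5.09 against 40.5 and 39.3 CPM (−2.53 ± 0.187). Both genotypes were clear of each other for Syt8 and Slc2a5. At its low level in mutants Slc2a5 fell short of 20% of members there. It therefore passed the filter through the controls, where it was high, and gets no p. Syt8 fell on the Chil1 side (−1.77) and missed the test on the Sfrp5 side (−0.76, adjusted p = 0.269), and Slc2a5 fell on the Chil1 side (−2.42).

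Fam155a, a subunit of the sodium leak channel complex, stood at 34.3 and 52.7 CPM against 255 and 174 (−2.21 ± 0.185, adjusted p = 7.60e-06) and fell on the Chil1 side (−1.84). On the Sfrp5 side its value was −4.72, from 18 to 70 cells a library, so its size there is uncertain. Car12, a membrane carbonic anhydrase, stood at 45.1 and 49.8 against 165 and 154 CPM (−1.67 ± 0.0953, adjusted p = 3.42e-07) and fell on both sides (−1.37 and −2.66). Smim5 stood at 25.0 and 26.6 against 78.3 and 76.9 CPM (−1.50). Ly6a, a surface antigen of stromal and progenitor cells, stood at 42.1 and 23.0 against 137 and 84.8 (−1.69). All 4 copies of the small nucleolar RNA gene Snord3b (Snord3b1 to Snord3b4) had the same values, 0.853 and 1.07 against 7.55 and 5.33 CPM (−2.58), since their reads cannot be told apart. Their levels in mutants were near the floor, so the filter was likely passed through the controls and no p is given.

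The osteoblast genes Col1a1 and Bglap, which encode type I collagen and osteocalcin, fell as well. Col1a1 stood at 199 and 480 CPM in mutant and 1213 and 1403 in control members (−1.86 ± 0.267, adjusted p = 0.000401), and a UMI was found in 53.0% and 56.5% against 87.5% and 88.2% of members. The 10 members with most Col1a1 held 55.8% and 70.6% of its UMIs in mutants and 85.3% and 84.2% in controls. Its change missed the test on the Chil1 side (−1.63, adjusted p = 0.0881) and the Sfrp5 side (1.01, adjusted p = 0.385), and it was −0.86 in members with the gene condition of the reference and few Prg4 UMIs. Bglap stood at 303 and 215 against 623 and 941 CPM (−1.51 ± 0.179, adjusted p = 0.0001). Free RNA held an expected 75.2 and 71.3 CPM of Col1a1 in mutant and 512 and 717 in control members, and 96.6 and 72.0 against 463 and 629 CPM of Bglap. After subtraction of these amounts Bglap had a value of −0.39 and Col1a1 of −1.33 (adjusted p = 0.0195). Bglap was in the gene set that fixed the share of free RNA. Much of its loss was thus set in advance, and it gets no p here. The same estimate exceeded the measured haemoglobin levels in all 4 libraries, with the larger excess in controls as a ratio to the measured level. It therefore takes off too much for those genes. Over the whole set that fixed the share, the expected sum equals the measured one. The excess for haemoglobin is thus matched by a shortfall for other genes of the set, and Bglap was expected below its measured level. How much of Bglap or of genes outside the set should be taken off was not tested. Ibsp, the bone sialoprotein gene that hypertrophic chondrocytes and osteoblasts share, went the other way, at 1922 and 3236 CPM against 1330 and 1369 (1.02, adjusted p = 0.00106), although its change was 0.59 without the second mutant library.

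Markers of other cell types were summed over the members of each library. Endothelial genes summed to 12.6 and 14.3 CPM in mutants and 6.71 and 13.8 in controls, with Cdh5 at 0 by the rule, and leukocyte genes to 2.61 and 12.1 against 7.58 and 3.73, with Ptprc at 0 by the rule. Erythroid genes summed to 442 and 524 against 135 and 152 CPM, with no overlap, and osteoblast genes to 3741 and 5510 against 4982 and 5598. Genes of reticular stromal cells summed to 1095 and 1151 against 1168 and 1132 CPM, of fibroblasts to 350 and 314 against 200 and 274, and of mural cells to 100 and 120 against 164 and 26.3. By the gene set given above, the share of free RNA in the members was estimated at 1.47% and 1.56% in mutants and 2.92% and 3.92% in controls. With these amounts subtracted, 122 of the 126 called genes were tested again and 115 of them were still called.

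Genes of glycolysis and of the response to low oxygen rose together in mutant members. Of 20 tested, 3 were called higher and none lower, and 16 were higher (80%, against 11.2% of all genes) and none lower at an adjusted p of 0.05, with a median log2 fold change of 0.45 against −0.01 for all genes. Mutant and control libraries did not overlap, with mutants higher, for 17 of the 20 (85%, against 20.9% of all genes tested, while 41.6% of all genes were lower in both mutant libraries). At an adjusted p of 0.05, 9 of the 20 were higher on the Chil1 side (median 0.31), 11 on the Sfrp5 side (1.01), 10 under the stricter rule for members, 11 without control 1 and 0 of the 13 that could be tested after thinning (0.34), with none lower in any of these. For the thinned values the rule was applied anew to the thinned counts. This left 109 and 113 members in mutant and 108 and 106 in control libraries, with 1992 genes tested, so it is a smaller set of cells. The list was written with earlier results of these data known and gets no test of its own. Bnip3, a mitochondrial receptor for autophagy, stood at 101 and 92.9 CPM in mutant and 48.8 and 34.1 in control members (1.31 ± 0.132, adjusted p = 2.94e-05), with a UMI in 55.0% and 54.6% against 38.0% and 29.4% of members. Ankrd37 stood at 30.8 and 25.5 against 11.6 and 9.13 CPM (1.52) and Ndrg1 at 55.8 and 52.6 against 26.2 and 21.6 (1.26, adjusted p = 3.39e-05). At its low level in controls Ankrd37, 1 of the 3 called, fell short of 20% of control members. It therefore passed the filter through the mutants, where it was high, and gets no p. The glycolytic enzymes rose less: Pgk1, phosphoglycerate kinase, stood at 252 and 238 against 172 and 175 CPM (0.58, adjusted p = 0.000381) and Gapdh at 596 and 596 against 441 and 467 (0.48). The 4 that missed the test were P4ha1 (0.03), Pdk1 (0.12), Hk2 (0.18) and Gpi1 (0.29, adjusted p = 0.0504). The transcripts of the oxygen-regulated factors, Hif1a (−0.01) and Epas1 (0.13), were not called.

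The promoters of these genes are shown because the letters ACGTG are the core that the hypoxia-inducible factors bind. In RefSeq windows of 250 bases before to 50 bases after the start on GRCm38.p6 (the files use GRCm39), ACGTG or its reverse complement CACGT was found for 14 of 19 genes of the list (73.7%), against 31.9% of 5411 tested genes and 21.8% of all 27025 genes in the table, each counted by any of its windows (19.6% of the 32851 windows). Among the genes of the list that were higher, 12 of 15 held it (80%). The list was chosen for glycolysis and the low-oxygen response, so these shares describe the choice of genes and were not tested. Matches on either strand were counted, and CACGTG counts on both. Capitals mark the matches in the 2 called genes with an entry, Bnip3 (chr7:138909457-138909756, minus strand) and Ankrd37 (chr8:45999801-46000100, minus strand).
Bnip3: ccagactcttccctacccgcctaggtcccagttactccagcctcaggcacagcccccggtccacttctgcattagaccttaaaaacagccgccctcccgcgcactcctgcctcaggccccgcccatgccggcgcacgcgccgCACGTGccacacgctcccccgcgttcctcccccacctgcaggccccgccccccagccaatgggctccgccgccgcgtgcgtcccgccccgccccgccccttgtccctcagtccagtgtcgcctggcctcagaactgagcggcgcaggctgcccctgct
Ankrd37: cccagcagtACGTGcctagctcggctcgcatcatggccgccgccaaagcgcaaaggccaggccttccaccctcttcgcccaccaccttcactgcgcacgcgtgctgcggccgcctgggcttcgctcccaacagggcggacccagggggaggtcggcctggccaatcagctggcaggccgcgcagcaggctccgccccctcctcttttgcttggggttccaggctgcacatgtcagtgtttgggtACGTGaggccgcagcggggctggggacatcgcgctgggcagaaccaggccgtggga
A match is a description of these windows, not a bound site.

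The increase was not particular to the members. In the cartilage reference 64 of 6454 genes were called higher (0.992%) and 71 lower (1.1%), 2.09% in all, and 23.1% were higher and 21.8% lower by adjusted p alone. There 21 of 21 genes of the list were higher at an adjusted p of 0.05, with a median of 0.87. The difference between the effect in members and in the reference passed an adjusted p of 0.05 for 8 of 21, against 1.4% of all genes with the larger and 0.707% with the smaller value in members, all 8 with the smaller increase in members, among them Slc2a1, the main glucose transporter (−0.72, adjusted p = 0.0171), Pgk1 (−0.55, adjusted p = 0.00981), Gapdh (−0.50, adjusted p = 0.00659) and Ldha (−0.49). None of these differences reached 2-fold.

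**Figure D5:**
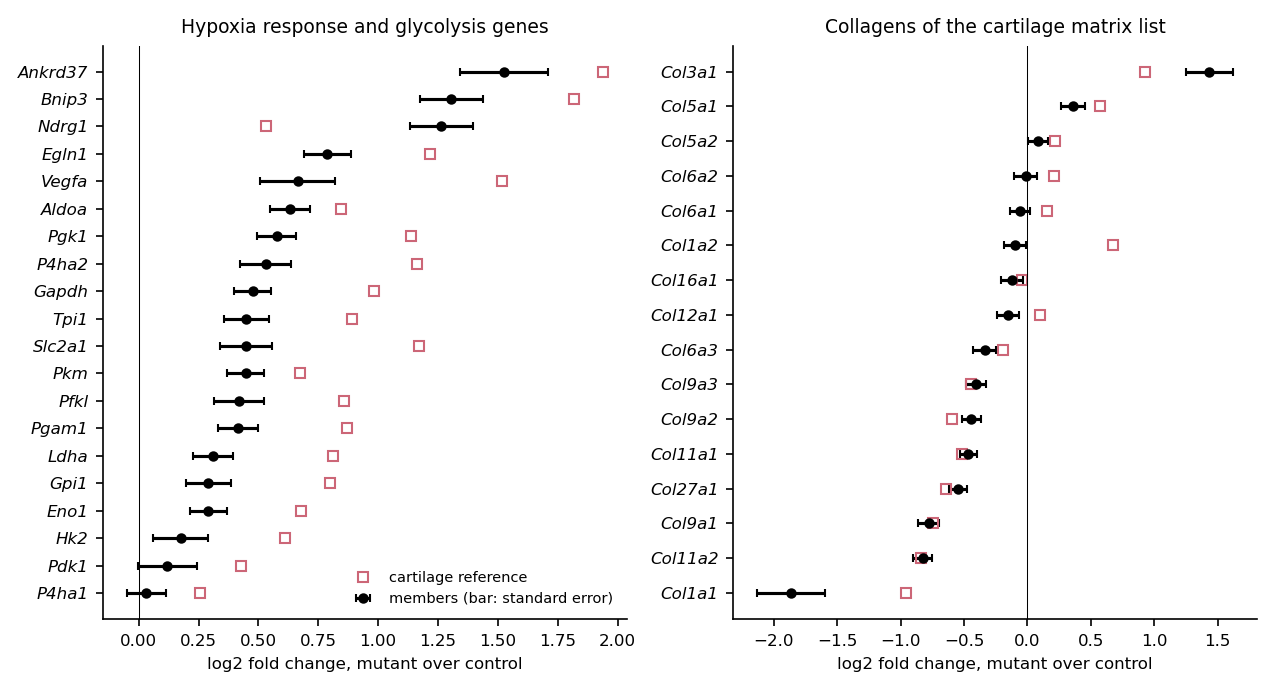
Log2 fold change of mutant over control ± SE (edgeR) for 20 genes of glycolysis and the low-oxygen response and 16 collagen genes, in the members (filled) and, as open squares, in the cartilage reference. Most genes of the first list lie above 0 with larger values in the reference, and Col11a2 (−0.83) and Col9a1 (−0.78) lie below 0 in members.

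Of 34 genes of the Wnt pathway besides Sfrp5, Notum and Lef1, 2 were called higher and none lower, and 6 were higher and 6 lower at an adjusted p of 0.05 (17.6% each, against 11.2% higher and 7.86% lower of all genes), with a median of 0.04. Among ligands and agonists, 3 of 5 fell. Wnt5b stood at 34.9 and 38.6 CPM in mutant against 67.6 and 69.3 in control members (−0.81, adjusted p = 0.000287), and Wnt4 at 50.3 and 52.6 against 67.5 and 81.8 (−0.45, adjusted p = 0.0172). Rspo3, a secreted amplifier of Wnt signals, stood at 26.3 and 35.5 against 60.1 and 68.9 (−0.98, adjusted p = 0.000539). None of the 3 reached 2-fold.

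Among receptors, Lgr6, which binds R-spondins, stood at 47.7 and 52.0 CPM against 22.9 and 18 (1.37). The share of control members with Lgr6 is not given here. It may have passed the filter only through the mutants, so no p is given for all members. On the Chil1 side, where Lgr6 was too sparse to test, it was at 12.9 and 23.2 against 22.8 and 16.6 CPM with overlap, and on the Sfrp5 side at 148 and 141 against 22.7 and 68.3 (2.00, adjusted p = 0.0166). Fzd2 stood at 62.1 and 57.6 against 43.0 and 35.7 (0.69, adjusted p = 0.00144). Of the secreted antagonists, Frzb stood at 234 and 259 against 102 and 126 CPM (1.20, adjusted p = 1.26e-05) and rose on both sides (1.26 and 1.50). Wif1 stood at 973 and 907 against 708 and 834 (0.37, adjusted p = 0.0134). Inside the cell, Ctnnb1, which encodes β-catenin, fell by 0.32 on the log2 scale (170 and 175 against 230 and 227 CPM, adjusted p = 0.0133). The membrane antagonist Apcdd1 fell by 0.82 (adjusted p = 0.00515), and of the genes known as targets Ccnd1 fell by 0.55 (adjusted p = 0.00535) whereas Myc rose by 0.80 (adjusted p = 0.0023).

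Genes of the PTHrP and Hedgehog loop, which sets when growth plate cells mature, numbered 12. Of these 1 was called higher, Gas1, which passed the filter only through the mutants and gets no p. With Gas1 counted, 3 were higher (25%) and 4 lower (33.3%) at an adjusted p of 0.05, against 11.2% higher and 7.86% lower of all genes. Pth1r, the PTHrP receptor, stood at 432 and 451 CPM in mutant and 724 and 773 in control members (−0.68, adjusted p = 9.17e-05). Pthlh stood at 46.9 and 57.6 against 93.4 and 71.6 CPM (−0.58, adjusted p = 0.00972). Hhip stood at 116 and 118 against 212 and 185 (−0.68, adjusted p = 0.000194) and Ptch1, the Hedgehog receptor, fell by 0.41 (adjusted p = 0.00673). The co-receptors Cdon (0.62, adjusted p = 0.00186) and Boc (0.62, adjusted p = 0.00143) rose with Gas1, and Gli1, a transcriptional target, had a value of 0.13 (adjusted p = 0.639).

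Of 12 maturation genes, 1 (Ibsp) was called higher, and 3 were higher (25%) and 5 lower (41.7%) at an adjusted p of 0.05, beside 11.2% and 7.86% of all genes. Runx2, a transcription factor of chondrocyte maturation and bone, stood at 261 and 293 CPM against 568 and 451 (adjusted p = 0.000221) and Sp7, which encodes osterix, at 29.7 and 29.0 against 58.7 and 56.3 (−0.89, adjusted p = 0.000199), and Mef2c fell by 0.76 (adjusted p = 5.82e-05). Alpl, tissue-nonspecific alkaline phosphatase, fell by 0.56 (adjusted p = 0.0416), whereas Vegfa rose by 0.66. Spp1 (0.59, adjusted p = 0.207) missed the test. Col10a1, limited by the rule, stood at 60.3 and 68.6 CPM against 25.9 and 25.7 and gets no test.

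Resting zone genes were split, with 6 higher (60%) and 2 lower (20%) of 10 at an adjusted p of 0.05, against 11.2% and 7.86% of all genes, and 1 called (Gas1). Gas1 is among the 6 and passed the filter only through the mutants, as given above. Clu, which encodes clusterin, stood at 1427 and 1589 CPM against 1033 and 1147 (0.55), and Apoe (0.31), Cd200 (0.57) and Tnfrsf11b, which encodes osteoprotegerin (0.30), rose. Pthlh and Nt5e, the ectonucleotidase CD73 (−0.40, adjusted p = 0.00507), fell, and Ucma missed the test (−0.20, adjusted p = 0.0708).

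Of 16 collagens tested besides the rule genes, 8 were lower (50%, against 7.86% of all genes) and 2 higher (12.5%, against 11.2%) at an adjusted p of 0.05, with 1 called in each direction and a median of −0.25. Col11a2 stood at 887 and 965 CPM in mutant and 1683 and 1795 in control members (−0.83, adjusted p = 1.69e-05), and Col9a1 fell by 0.78 (adjusted p = 3.22e-05). Smaller decreases were measured for Col27a1 (−0.55), Col11a1 (−0.47), Col9a2 (−0.44), Col9a3 (−0.41) and Col6a3 (−0.34). Col3a1, a collagen of looser connective tissue, rose from 64.4 and 119 CPM to 225 and 243 (1.43, adjusted p = 0.000203). The rule genes Col2a1 (16334 and 18665 against 22860 and 25591 CPM) and Acan (2014 and 2074 against 2802 and 2616) were lower in both mutant libraries, as a description.

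Of 27 proteoglycans and other matrix proteins, 5 were called higher and 1 lower, against 1.12% and 0.691% of all genes. Besides Cytl1, Cilp and Prg4, Ogn, which encodes osteoglycin, stood at 274 and 230 CPM against 123 and 131 (1.07), and Cilp2 at 99.8 and 125 against 47.1 and 57.2 (1.19). Cilp2 missed the test on the Chil1 side (0.10, adjusted p = 0.753) and rose on the Sfrp5 side (1.44, adjusted p = 0.0148). Epyc stood at 75.5 and 61.7 against 158 and 191 CPM (−1.26, adjusted p = 1.74e-05). Its change was below 2-fold on the Chil1 side (−0.89) and −2.24 on the Sfrp5 side. Fibronectin (Fn1) fell by 0.62 and Mgp by 0.28 (adjusted p = 0.00102), whereas Dcn, decorin, rose by 0.68 and Comp by 0.32. Of 8 general chondrocyte genes, 6 were lower and 1 higher at an adjusted p of 0.05 (all genes 7.86% and 11.2%), and Prkg2 was called, at 228 and 259 against 503 and 567 CPM (−1.05, adjusted p = 1.49e-05). Within the sides its change was below 2-fold, −0.77 on the Chil1 side and −0.66 on the Sfrp5 side, where it missed the test (adjusted p = 0.159).

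Genes of the joint surface were higher in mutant members for 5 of 5 tested, with 3 called (all genes 11.2% and 1.12%) and a median of 1.32, against 0.13 in the cartilage reference. Beside Prg4 and Cilp, Abi3bp stood at 262 and 330 CPM against 114 and 137 (1.32, adjusted p = 1.65e-05), with 1.10 on the Chil1 side and 0.54 on the Sfrp5 side, where it missed the test (adjusted p = 0.571). Clu (0.55) and Erg (0.54) rose without reaching 2-fold. As given above, Prg4 and Cilp came largely from few cells.

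Among 25 genes of BMP and TGF-β signalling, 9 were higher (36%) and 4 lower (16%) at an adjusted p of 0.05, with 11.2% and 7.86% for all genes. Bmp2 was the 1 called, at 37.5 and 37.7 CPM against 20.1 and 15.2 (1.17), though it missed the test on the Sfrp5 side (1.10, adjusted p = 0.103) and was too sparse to test on the Chil1 side. It too may have passed the filter only through the mutants, so no p is given for all members. Bmp6 (0.79), Tgfb1 (0.75), Smad7 (0.63), Tgfb2 (0.57) and the target Id3 (0.42) rose, whereas Bmp7 fell by 0.57 and the antagonist Chrdl1 by 0.40. Of 9 FGF and IGF genes, 2 were higher (22.2%) and none lower at an adjusted p of 0.05. Igfbp6, which binds insulin-like growth factors, was the 1 called (11.1%, against 1.12% of all genes called higher), at 184 and 145 against 47.7 and 94.3 CPM (1.29, adjusted p = 0.00108). Targets of YAP and TAZ, the effectors that LATS kinases restrain, had 2 of 14 higher (14.3%, near the 11.2% of all genes) and none lower at an adjusted p of 0.05 and none called. Ccn2 stood at 1306 and 1215 CPM against 808 and 813 (0.72, adjusted p = 3.15e-05) and Thbs1 at 1188 and 1103 against 914 and 699 (0.59), while Ccn1 had a value of −0.07 (adjusted p = 0.587). Among 23 transcription factors 3 were higher (13.0%) and 5 lower (21.7%) at an adjusted p of 0.05, against 11.2% and 7.86% of all genes. Pax1 was the 1 called (4.35%, against 0.691% of all genes called lower), at 64.9 and 48.4 against 118 and 124 CPM (−1.01). Klf2 (500 and 411 against 240 and 273, 0.91) and Klf4 (0.53) rose. The change of Pax1 was below 2-fold on the Chil1 side (−0.54) and −2.25 on the Sfrp5 side. Sox9 had a value of 0.01 (adjusted p = 0.934) and Sox5 fell by 0.36.

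Of the 6 heat shock genes tested, 4 fell in mutant members. Hspa1b stood at 93.5 and 114 CPM against 270 and 292 (−1.36, adjusted p = 3.75e-06) and fell on both sides (−1.32 and −1.90), and Hspa1a stood at 161 and 179 against 337 and 389 (−1.01). Hsph1 (−0.85) and Dnajb1 (−0.61) fell less. Hspb1 rose (0.43, adjusted p = 0.0334) and Hspa8 missed the test (−0.08). On the whole list, which adds immediate early genes such as Fos (0.28), 5 of 18 genes were higher and 5 lower at an adjusted p of 0.05 (27.8% each, against 11.2% and 7.86% of all genes). Of 15 genes of the unfolded protein response, 1 (Dnajb9, 6.67%) passed, and of 12 ribosomal protein genes 11 were higher (91.7%), none 2-fold, with a median of 0.38 (0.48 in the reference). Among 12 proteases and inhibitors, 4 were higher (33.3%) and 1 lower (8.33%) at an adjusted p of 0.05. Cst3, cystatin C, stood at 23356 and 23332 against 14102 and 13357 CPM (0.85, adjusted p = 6.76e-07). The cell cycle inhibitor gene Cdkn1a stood at 153 and 117 against 70.6 and 69.4 (1.03, adjusted p = 9.81e-05), and the chemokine Cxcl12 at 77.7 and 168 against 327 and 200 (−1.01, adjusted p = 0.0182). The change of Cxcl12 was −0.64 without control 1, where it missed the test (adjusted p = 0.0934), −0.56 without mutant 1 and −1.68 without mutant 2. It was −0.54 after free RNA was subtracted (adjusted p = 0.376), where the share of free RNA rests on the gene set given above.

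Whether these changes were particular to the members was tested as the difference between the genotype effect in members and in other cells of the same libraries. Against all 7532 other cells of the rule, 184 of 7252 genes differed (2.54%), 159 with the larger value in members (2.19%) and 25 with the smaller (0.345%). By adjusted p alone these were 7.97% and 5.61%. Those cells include osteoblasts with stray Col2a1 counts. Against the cartilage reference 46 of 7073 genes differed (0.65%), 40 larger in members (0.566%) and 6 smaller (0.0848%). The reference held barcodes with megakaryocyte genes (at least 3 UMIs of Tubb1, Pf4, Ppbp, Itga2b and Gp9), 3 and 1 in mutant and 7 and 8 in control libraries, and without these 19 barcodes 30 of 7070 genes differed (0.424%), 25 larger (0.354%) and 5 smaller (0.0707%).

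For Omd, Slpi, Car12, Slc2a5, Syt8 and Fam155a no difference from the cartilage reference passed the test. Omd rose by 2.02 in the reference, from 206 and 282 CPM in controls to 862 and 1003 in mutants, a difference of 0.01 ± 0.122 (adjusted p = 0.985). The difference was 0.04 ± 0.125 for Slpi, −0.04 ± 0.100 for Car12 (−1.62 in the reference), 0.06 ± 0.205 for Slc2a5 (−2.61), −0.48 ± 0.121 for Syt8 (−1.44, adjusted p = 0.089) and 0.90 ± 0.231 for Fam155a (−3.09, adjusted p = 0.0993).

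Genes with the larger effect in members included several that were scarcer there than in the reference. Sbsn had a difference of 2.17 ± 0.209 (adjusted p = 0.00176), with 2.46 in members and 0.31 in the reference, where it stood at 222 and 174 CPM in mutants and 168 and 171 in controls. For Cilp the difference was 2.06 ± 0.236 (adjusted p = 0.00271), from 1.66 in members and −0.39 in the reference. Gas1 differed by 1.49 (adjusted p = 0.00263), with 1016 and 1030 against 913 and 800 CPM in the reference. In this comparison Sbsn and Gas1 passed the filter through the reference of both genotypes, where a UMI was found in 33.5% and 27.1% (Sbsn) and in 51.3% and 42.7% (Gas1) of mutant and control cells. Abi3bp (1.31), Lgr6 (1.23), Igfbp6 (1.18), Cilp2 (1.15), Dcn (0.95), Cdon (0.76) and Cytl1 (0.66, adjusted p = 0.000612) also had the larger increase in members, the last 3 below 2-fold. Prg4 did not pass this test (1.65, adjusted p = 0.112).

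Pcsk5, a proprotein convertase, had a difference of 1.81 (adjusted p = 0.00176), with −1.31 in the reference. Itga6 had the largest difference of the named genes, 3.35, but the reference level was 23.7 and 25.7 CPM in mutants against 187 and 331 in controls, and without the barcodes with megakaryocyte genes the difference was 0.24 (adjusted p = 0.706). The difference of Vps13a went from 1.79 to 0.22 in the same way (adjusted p = 0.859). Genes with the lower value in members were Hilpda, a lipid droplet protein of the low-oxygen response (−1.35, 1.43 in the reference), the BMP antagonist Grem1 (−1.25, and −0.75 without control 1), the fatty acid binding protein Fabp5 (−1.24), Frzb (−1.20, 2.36 in the reference) and Loxl4 (−1.19). F5, coagulation factor V (−1.09), fell in members (−1.39) and by less in the reference (−0.29). Frzb therefore rose in both cell sets and rose less in the members.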

How the data were processed

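Single-cell RNA-seq libraries of 2 mutant and 2 control samples were analysed. The authors deposited matrices of estimated counts per gene and barcode, made with STARsolo (2.7.10a, after cutadapt 3.5, mouse build mm39), in which reads shared by genes are split, so some expected counts are not whole. Counts were summed over the members of each library and rounded. Genes with counts in at least 20% of cells of either genotype were tested with edgeR (4.0.16, R 4.3.3, TMM, quasi-likelihood, Benjamini-Hochberg). A difference between cell sets was tested as an interaction with the library as a block. DESeq2 (1.42.0) was an alternative. Cells were thinned to 3000 UMIs for the shares given as thinned. Other shares of cells with a UMI are at full depth. Doublets were scored and kept, and left out in an alternative. Coordinates come from a GENCODE annotation of GRCm39 matched by identifier, for 52610 of 53703 features. On simulated data 99% of genes changed 2-fold were recovered by adjusted p alone in the comparison of members (6942 genes). The share that would also meet the condition on size, and so be called, was not tested.

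Members, markers, gene lists and tests were chosen with earlier results of these data known. Named genes were the genes of the rule and Spon1, the 12 largest increases and 12 largest decreases among called genes whose libraries did not overlap, the 6 largest differences in each direction, the called genes of each list (up to 5), the 15 highest and 10 lowest ratios beside other cells, and Lats2, Cre-ERT2 and sex-linked genes. Predicted genes and pseudogenes were left out, and other genes of the lists were named after their values were seen. Replicate numbers 1 and 2 are shared by the genotypes in name only. A result among the named genes is not reported here.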

Additional observations from a re-analysis of the deposited data

Results flagged for a closer look

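The 24 cases below are named genes whose genotype effect differed between members and other cells of the same libraries by an interaction test (edgeR). They are the 6 largest called differences in each direction for each set of other cells, so their number was fixed by this choice. Itga6 is counted for both sets. Of all genes tested, 2.54% differed against the other cells of the rule and 0.65% against the cartilage reference. Against all other cells of the rule, which include osteoblasts and barcodes with megakaryocyte genes, the log2 difference was 2.86 for Lyn, 2.42 for Itga6, 2.33 for Hba-a1, 2.20 for Ppfibp2, 2.04 for Col1a2 and 2.03 for Dtna. In the other direction it was −1.61 for Arsi, −1.54 for Ly6a, −1.51 for Pank1, −1.39 for Rbp4, −1.35 for Isg20 and −1.28 for Mdga2. Lyn and Ppfibp2 were too sparse to test in members. Lyn stood there at 7.72 and 9.85 CPM in mutants and 5.51 and 3.59 in controls. Ppfibp2 stood at 3.91 and 4.98 against 3.58 and 2.77. In the other cells these genes fell by −1.79 (Lyn) and −1.59 (Ppfibp2). The difference of Hba-a1 was 0.37 after thinning (adjusted p = 0.743). For Col1a2 the difference had the opposite sign against the cartilage reference (−0.77, adjusted p = 0.00166), and its change in members was −0.10 overall (adjusted p = 0.488) and 1.17 on the Sfrp5 side (adjusted p = 0.0141).

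Against the cartilage reference it was 3.35 for Itga6, 2.17 for Sbsn, 2.06 for Cilp, 1.81 for Pcsk5, 1.79 for Vps13a and 1.76 for Sema3e. It was −1.35 for Hilpda, −1.25 for Grem1, −1.24 for Fabp5, −1.20 for Frzb, −1.19 for Loxl4 and −1.09 for F5. Sema3e was too sparse to test in members, at 4.99 and 5.85 CPM in mutants and 1.65 and 1.94 in controls. Without control 1 the difference of Grem1 was −0.75 (adjusted p = 0.428) and that of Loxl4 −0.95 (adjusted p = 0.223). That of Isg20 against the other cells of the rule was −1.07 without the same library (adjusted p = 0.0848). The differences of Itga6 and Vps13a were lost without the barcodes with megakaryocyte genes, as given above.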

How the results depend on the processing

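The log2 ratio of member shares among chondrocytes, 0.08, was −0.30 after thinning to 3000 UMIs and 0.02 to 0.15 with a library left out. For genes changed in members (78 higher, 48 lower), thinning gave 12 and 14 (39 of the 126 were tested and 21 called), the Sfrp5 side alone gave 134 lower, and adjusted p alone gave 778 and 546. Without a filter on low genes 1 and 0 of 26393 were called (3457 at an unadjusted p of 0.05), against 75 and 46 by DESeq2 with the filter. Leaving out a library gave 69 to 89 higher and 49 to 55 lower. A replicate block gave 78 and 48, with 124 of the 126 calls remaining, and replicates with the same number did not deviate together (correlation 4.80e-06). Of the 126 calls, DESeq2 made 120 and the stricter rule 82 of 123 tested.

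The differences from other cells of the rule (159 and 25) became 40 and 6 against the cartilage reference, 25 and 5 without megakaryocyte genes in it, 472 and 133 without a filter on genes, 15 and 12 after thinning and 578 and 407 by adjusted p alone. A complexity filter gave 105 higher. Hypertrophic and cycling cells in the reference gave 95 lower, a reference without Chil1 and Sfrp5 53 and the stricter rule 45. Leaving out a library gave 154 to 198 and 26 to 47, the highest without control 2. Against the cartilage reference (40 and 6) the ranges were 33 to 45 and 6 to 14, with 14 lower without mutant 2 and 10 without control 2.

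Of genes named for their change in members, signs turned for Prg4 (−0.25) and Col1a1 (1.01) on the Sfrp5 side, Bglap2 (1.36 after free RNA was subtracted), Hspa5 (0.26 on the Sfrp5 side, −0.18 to 0.029 with a library left out), Ddx3y (−0.17 to 0.15 with a library left out) and Spon1 (0.21 on the Chil1 side, 0.00217 in members low in other markers, 0.14 thinned). Bglap2 was in the gene set that fixed the share of free RNA. The causes were not tested. With 2 libraries per genotype, shares cannot reach p under 0.333, and Sfrp5-side values rest on 18 to 70 cells a library.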
